A study of Caenorhabditis elegans with 14 samples.

Results

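RNA polymerase II was mapped by chromatin immunoprecipitation and sequencing (ChIP-seq) in first-stage (L1) Caenorhabditis elegans larvae 1 hr after their first meal. Of the 14 samples of the series, the 4 ChIP samples of fed larvae were taken, and each was set against 1 deposited input column, which names no single one of the 4 input samples. Every sample came from the wild-type strain N2 at 20 °C and was fixed in 2% formaldehyde for 30 min. The fed larvae had hatched without food, had been held in L1 arrest for 12 hr, and were then given 25 mg/ml of the Escherichia coli strain HB101 for 1 hr. Whole larvae were used, so a high density in a few cells and a low one in many cannot be told apart. The input samples came from larvae arrested for 6 hr or 12 hr and from fed larvae, so input is not matched to the fed state alone. Antibodies S2 and 8WG16 gave 1 library each, and 4H8 gave 2, which the series text calls biological replicates; p-values therefore measure the spread among 3 antibodies as much as among cultures.

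RNA polymerase II transcribes all protein-coding genes and most microRNA genes. The tail of its largest subunit is phosphorylated as transcription proceeds: S2 recognises the form phosphorylated on serine 2, typical of elongating polymerase, 8WG16 prefers the unphosphorylated form found on polymerase that has been recruited but not released, and 4H8 binds phosphorylated and unphosphorylated forms. In nematodes many genes that follow each other closely on one strand are transcribed together as operons. The 5' end of most transcripts is replaced by a spliced leader, so an annotated start can lie away from the site where transcription begins.

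Read density was given in RPKM (reads per kilobase of sequence, normalized for library depth) for every gene model of the WS190 annotation and for a 200 bp window at its most upstream annotated start. Ratios are log2((ChIP RPKM + 5)/(input RPKM + 5)), averaged over the 4 libraries; the addition of 5 RPKM shrinks the ratios of sparse genes. Depth recovered from the densities was 3.07, 4.50, 5.86 and 1.32 Mreads (units of 1e6 reads) in the S2, 4H8, 4H8 #2 and 8WG16 libraries and 11.9 Mreads in input. A median gene model held 26 to 105 reads per ChIP library and 260 in input, and a median start window only 2 to 8 reads per ChIP library and 24 in input, so start values of single genes are coarse. A count of 3 reads in a start window corresponds to 2.56 to 11.3 RPKM in the ChIP libraries.

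Which genes carried polymerase depended on how the single input column was treated. The planned fit compared 2 groups (limma, Benjamini-Hochberg adjusted p under 0.05) and let input vary as much as the 4 ChIP libraries did. It called 0 of 18048 gene models above input (0.0%) and 0 below, with 1080 above (5.98%) and 2431 below (13.5%) at an unadjusted p under 0.05. Among 17112 start windows the same fit called 158 above input (0.923%) and 2 below (0.0117%). A second fit took input as fixed and tested whether the 4 log2 ratios differed from 0. It called 2623 gene models above input (14.5%) and 9676 below (53.6%), and 1705 start windows above (9.96%) and 6182 below (36.1%). The description that follows uses the input-fixed fit, a choice made after the 2-group fit had returned no gene model. Its p-values leave out the counting error of input, and every gene below has an adjusted p of at least 0.05 over the gene model in the 2-group fit.

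Ratios below 0 depended on the scale. The median gene had a log2 ratio of -0.33, and the chemoreceptor genes, a family of more than 1000 sensory receptors expressed in few cells, had a median of -0.57. When each library was rescaled so that this family had a median ratio of 1, the median of all genes moved to 0.41, and 8861 gene models lay above input (49.1%) against 195 below (1.08%). After quantile normalization, which gives input the same distribution of densities as the ChIP libraries, the median was -0.02, with 4737 gene models above input and 5106 below. "Above input" therefore means above the average of the genome as sequenced, and values below input are not read as absence of polymerase.

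Classes were formed among the 15750 genes tested over both regions with a model of at least 500 bp. The body class, with the gene model called above input and above it in each of the 4 libraries, held 2331 genes (14.8%), of which 694 (4.41%) averaged at least 2-fold. A start-only class, with the start window above input in each library and the gene model not called above, held 485 genes (3.08%). Neither region was called above in 12746 genes (80.9%), and 188 (1.19%) met a class in part. In the 2-group fit the body class was empty and start only held 135 genes (0.857%). Under chemoreceptor scaling the body class grew to 7691 genes (48.8%) and start only shrank to 183 (1.16%). The 2331 body genes took 48.8%, 46.9%, 37.4% and 32.8% of the gene-model reads in the S2, 4H8, 4H8 #2 and 8WG16 libraries, against 19.5% in input.

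**Figure D1:**
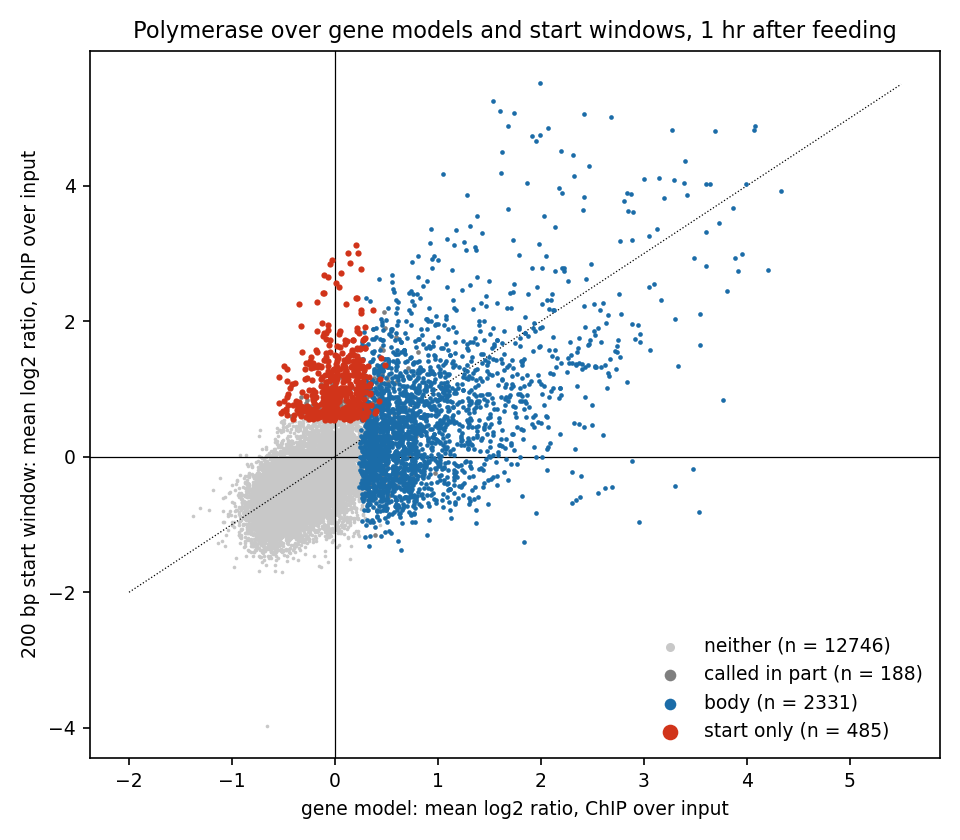
Mean log2 ratio of ChIP over input for the gene model (x axis) and for the 200 bp start window (y axis), 1 point per gene, coloured by class; the dotted line marks equal ratios. Body genes spread to the right on both sides of the dotted line, and the 485 start-only genes form a vertical band near 0 on the x axis. The start-only class leaves out genes called above input over the gene model.

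Many of the 12 named genes with the highest gene-model ratios were genes of protein synthesis or their immediate neighbours. An exception was tos-1, with 353, 414, 301 and 345 RPKM in S2, 4H8, 4H8 #2 and 8WG16, against 23.5 RPKM in input, a log2 ratio of 3.64; the highest ratio of any other model within 1000 bp was that of K07B1.7, 0.04. The acidic ribosomal stalk protein gene rla-1 (chromosome I, 2069084-2069589) was highest, with 1721, 1206, 920.0 and 589 RPKM in the S2, 4H8, 4H8 #2 and 8WG16 libraries, against 46.4 RPKM in input. Its log2 ratio was 4.33 ± 0.66 (SE, n = 4), with an SD of 0.65 over the 4 libraries. The adjusted p was 0.00279 by limma with input fixed and 0.253 in the 2-group fit. SE here and below is the moderated error of limma, which draws on the variance of other genes and is not the SD divided by the root of n. The lowest ChIP library, 8WG16, lay far above input, and the spread among the 4 libraries was smaller than their distance to it.

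The translationally controlled tumour protein gene tct-1 (chromosome I, 10569097-10570019), which has a conserved role in growth, had 1111, 822, 464.5 and 349 RPKM in the 4 libraries, against 34.5 RPKM in input, a log2 ratio of 3.99. The 2 genes for translation elongation factor 1A, which brings aminoacyl-tRNA to the ribosome, were also among the highest. For eft-4 (chromosome X, 7823594-7825711) the densities were 528, 577, 416 and 299 RPKM in S2, 4H8, 4H8 #2 and 8WG16, against 24.6 RPKM in input. For eft-3 (chromosome III, 6969962-6971654) they were 627, 636, 445 and 235 RPKM, against 34.1 RPKM in input. The log2 ratios were 3.92 and 3.55, but the 2 coding sequences are near copies, and how the authors split reads between them is not known here. The constitutive Hsp70 chaperone gene hsp-1 had the same log2 ratio, 3.55, with 565, 558, 395 and 245 RPKM in the 4 libraries, against 31.3 RPKM in input. In all of these genes the 8WG16 library was the lowest of the ChIP libraries and still lay above input.

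**Figure D2:**
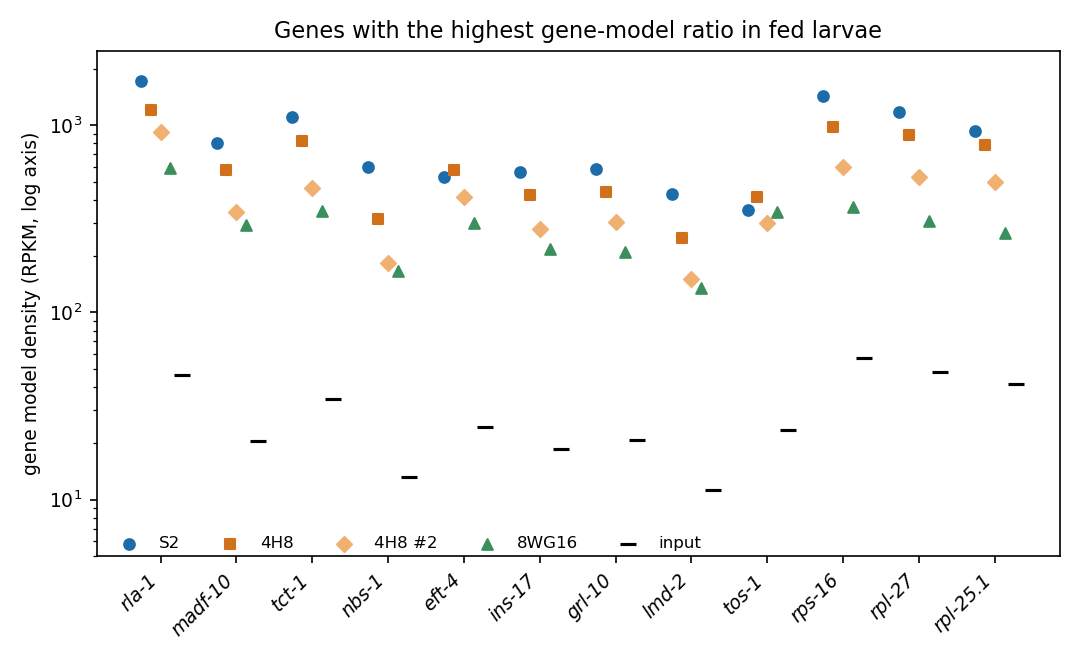
Gene-model density in RPKM on a log axis for the 12 named genes with the highest ratio, with 1 symbol per ChIP library and a bar for input. All ChIP values lie above input; for rla-1 the ChIP values run between 589 and 1721 RPKM and input is at 46.4 RPKM.

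Several of the 12 highest genes have no role in translation but end or begin within 100 bp of a ribosomal protein gene. The insulin-like peptide gene ins-17 (chromosome III, 4476856-4477551) lies on the opposite strand directly after the end of rps-1. It had 565, 425, 278 and 219 RPKM in the 4 libraries, against 18.7 RPKM in input, a log2 ratio of 3.89, while rps-1 itself was at 1.04. The ground-like gene grl-10 (3.81) lies 42 bp after the end of rpl-39 (2.17), and the LysM-domain gene lmd-2 (3.77) lies 15 bp after the end of rpl-4 (2.62). Likewise madf-10 (4.21) lies 34 bp after the end of rpl-30 (2.72), and nbs-1 (3.95) lies 91 bp after the end of rpl-41 (1.53). In each of these 5 pairs the gene past the end of the ribosomal protein gene had the higher ratio.

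This arrangement was then counted over all ribosomal protein genes, and the pairs above, which prompted the count, were not left out of it. Their nearest neighbours within 500 bp that are no ribosomal protein genes were sorted by side and strand. Of neighbours on the opposite strand, 19 of 20 lying past the end of a ribosomal protein gene were above input, with a median log2 ratio of 2.52, and 13 of them exceeded the ribosomal protein gene beside them, whose median was 2.04. Of opposite-strand neighbours lying before the start, 9 of 18 were above input, with a median of 0.29, and 1 exceeded its ribosomal protein gene (median 2.22). The downstream neighbours had medians of 3.31, 2.85, 2.04 and 1.83 in S2, 4H8, 4H8 #2 and 8WG16, and the upstream neighbours 0.48, 0.38, 0.22 and 0.19, so the difference between sides appeared in each library and was largest in S2. Scaled on chemoreceptor genes, 20 of 20 downstream and 18 of 18 upstream neighbours were above input, and without the first 4H8 library 17 and 5 were.

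Neighbours on the same strand, where an operon is possible, gave 28 of 28 above input downstream (median 2.37) and 5 of 6 upstream (median 2.11). Around other genes at least 2-fold above input the difference between sides was smaller: 101 of 141 opposite-strand neighbours downstream (71.6%, median 0.57) and 36 of 66 upstream (54.6%, median 0.36) were above input. Around genes not above input, 9.9% of 2750 opposite-strand neighbours downstream and 10.9% of 1099 upstream were above. ChIP reads carry no strand, so these densities cannot be assigned to one gene of a pair. Genes such as ins-17, grl-10, lmd-2, madf-10 and nbs-1 are therefore in the body class by position of reads, and whether they are transcribed was not tested.

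Of 72 ribosomal protein genes tested, 71 were above input (14.5% of all genes were), none was below, and 67 were at least 2-fold above (4.04% of all genes were), with a median log2 ratio of 1.98. Chemoreceptor scaling gave 72 of 72 and a median of 3.03, but quantile normalization turned the direction, with 27 above input, 33 below and a median of -0.12. Their input density was itself high, with a median of 43.2 RPKM, against 11.2 RPKM for all genes tested. The exception, rpl-42, was at 5.01, 5.63, 9.42 and 8.21 RPKM in S2, 4H8, 4H8 #2 and 8WG16, against 7.83 RPKM in input, a log2 ratio of -0.10 that did not pass the test. No antibody placed it apart from input.

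The lists that follow stand against 14.5% of all genes above input and 53.6% below. Translation factors were above input in 32 of 40 genes and below in 2, with a median of 0.75 (1.74 chemoreceptor-scaled, 0.57 after quantile normalization). Aminoacyl-tRNA synthetases, which charge tRNAs, were above in 19 of 30, with a median of 0.37; the lysyl enzyme gene krs-1 was highest at 1.38. Ribosome biogenesis genes were above in 12 of 19, with a median of 0.49, led by fib-1, the methyltransferase fibrillarin of the nucleolus (2.64), and nol-56 (2.19). Mitochondrial ribosomal protein genes, most of them named through RefSeq, were above in 23 of 65 with a median of 0.12, against 1.98 for the cytoplasmic set; quantile normalization turned that order, with medians of 0.34 and -0.12. The highest of them, mrpl-50 (2.01), lies 47 bp from the neighbouring enolase gene enol-1.

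Other housekeeping groups were set against the same shares of all genes, 14.5% above input and 53.6% below. Of 24 oxidative phosphorylation genes, 16 were above input and none below (median 0.56). They included atp-2 (2.57), the beta subunit of ATP synthase, and cyc-2.1 (2.84), a cytochrome c whose model overlaps rpl-20. Proteasome genes were above in 21 of 33 (median 0.39, and -0.02 after quantile normalization), with pbs-5 and rpn-11 at 1.46 and 1.41. Splicing genes were above in 17 of 31 (median 0.50), with the hnRNP gene hrp-1 at 2.14 and the SR protein gene rsp-3 at 1.86. Transcription machinery genes were above in 26 of 53 (49.1%) and below in 8, a smaller share below than the 53.6% of all genes. Their median was 0.26, with 49 above and 0 below under chemoreceptor scaling. The gene ama-1, which encodes the large polymerase subunit that the antibodies recognise, was among them at 0.51, with 34.9, 34.4, 30.8 and 22.9 RPKM in S2, 4H8, 4H8 #2 and 8WG16, against 19.9 RPKM in input.

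For the next lists too, the shares of all genes were 14.5% above input and 53.6% below. On the deposited scale 16 of 26 chaperone genes were above input (61.5%) and 7 below (median 0.74). Chemoreceptor scaling gave 19 above and 0 below. The Hsp90 gene daf-21 was at 2.30, whereas the stress-inducible hsp-70 was at -0.72 (-0.04 chemoreceptor-scaled). Its densities were 3.64, 6.10, 11.7 and 6.68 RPKM in S2, 4H8, 4H8 #2 and 8WG16, against 14.3 RPKM in input. The constitutive hsp-1 was the highest of the list and hsp-70 the lowest. Actin and tubulin genes were above in 10 of 18 (median 0.95, and -0.08 after quantile normalization), led by act-4 (2.63) and tbb-2 (1.80), both members of families of near-identical copies. Core histone genes, also near-identical, could be tested over only 9 of 70 models because most are shorter than 500 bp; 6 were above input. Of 28 histone start windows tested, 11 were above input (9.96% of all start windows were).

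**Figure D3:**
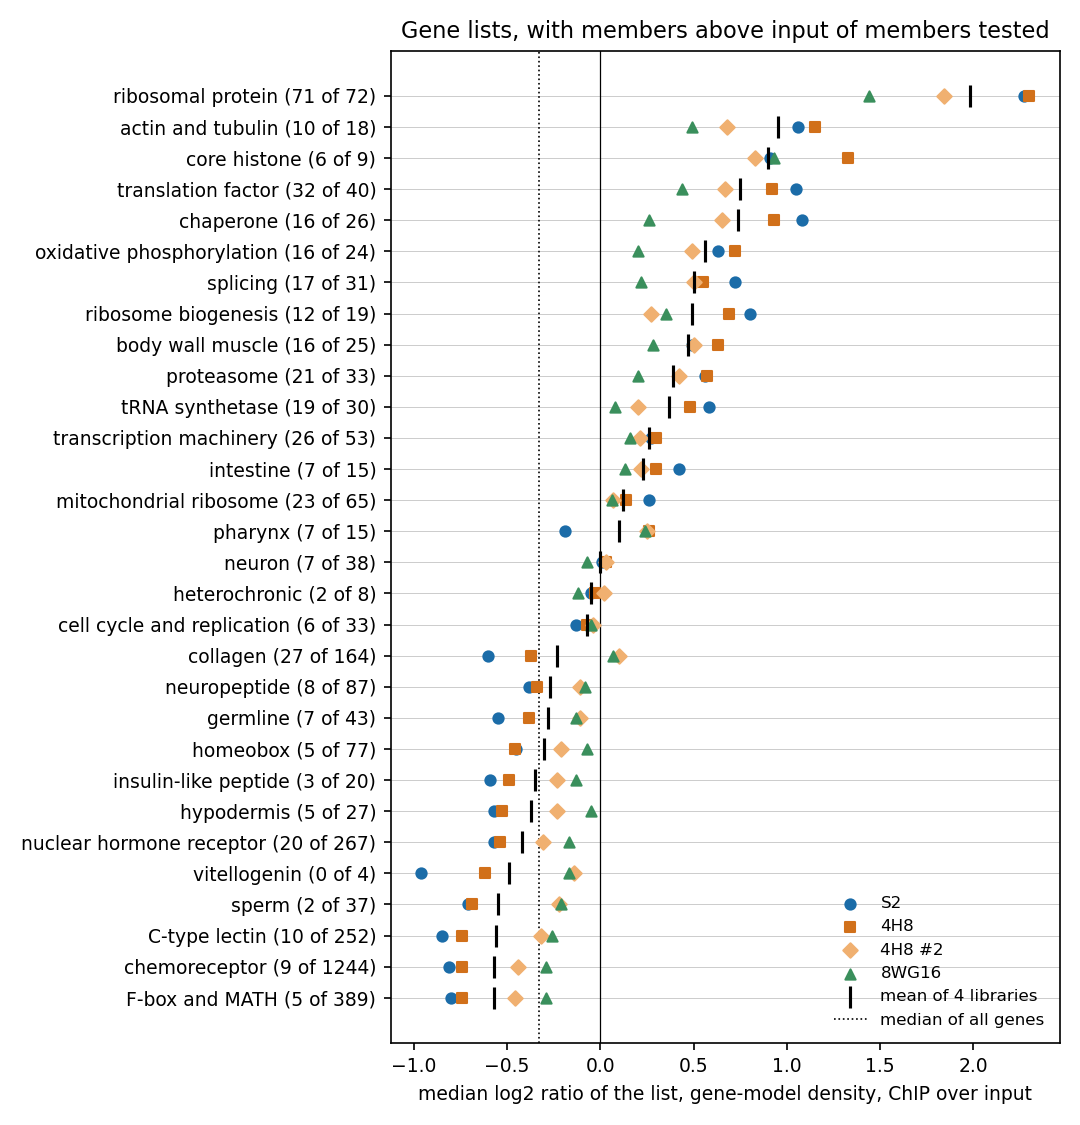
Median log2 ratio of gene-model density for each gene list, with 1 symbol per library, a black tick for the mean of the 4 libraries, and the number of members above input of those tested in parentheses; the dotted line is the median of all genes. Ribosomal protein genes stand at the top at 1.98, and chemoreceptor, C-type lectin and F-box genes at the bottom between -0.57 and -0.56.

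Markers of the larval tissues were examined next, beside 14.5% of all genes above input and 53.6% below. Body wall muscle genes were above input in 16 of 25 (median 0.47): the muscle myosin heavy chain gene unc-54 had 123.5, 122, 80.7 and 40.6 RPKM in S2, 4H8, 4H8 #2 and 8WG16, against 20.9 RPKM in input, a log2 ratio of 1.78, and the myosin light chain gene mlc-1 was at 2.08. A second myosin gene of the same muscles, myo-3, was at -0.04, with 17.1, 16.98, 20.1 and 18.8 RPKM, against 18.8 RPKM in input, and did not differ from it. Intestinal genes were above in 7 of 15 (46.7%, median 0.23). The aspartyl protease gene asp-1 (chromosome V, 19049422-19050789) had 482, 605, 487 and 410.5 RPKM in the 4 libraries, against 54.9 RPKM in input (3.05), and the cathepsin B-like gene cpr-4 was at 2.60. The intestinal GATA factor gene elt-2 was at -0.18 and did not pass the test, and the gut esterase gene ges-1, at -0.60, was below input.

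In the pharynx list 7 of 15 were above input (46.7%, against 14.5% of all genes), with the pharyngeal myosin gene myo-2 at 1.19. The intestinal actin gene act-5 was at 1.62 and the GATA factor gene elt-3 of the hypodermis at 0.55. Of 27 hypodermis genes, 5 were above (18.5%, against 14.5% of all genes) and 18 were below (53.6% of all genes were). Chemoreceptor scaling gave 12 above and 0 below. The highest of the list was lin-26 at 0.86. Collagen genes, which build the cuticle, were above in 27 of 164 (16.5%, against 14.5% of all genes) and below in 43 (53.6% of all genes were). Their median was -0.23 (0.66 chemoreceptor-scaled, -0.70 after quantile normalization). A few were very high: col-103 had 301, 375, 330.0 and 333 RPKM in S2, 4H8, 4H8 #2 and 8WG16, against 39.0 RPKM in input, and col-42 was at 2.43. In col-103 the 4 libraries were nearly equal.

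Neuronal genes were above input in 7 of 38 (18.4%, against 14.5% of all genes) and below in 10 (median 0.00, against -0.33 for all genes). The carboxypeptidase gene egl-21 of neuropeptide processing was highest at 0.70, and the pan-neuronal gene unc-119 was at -0.18. Neuropeptide genes were above in 8 of 87 (9.2%) and below in 42, against 14.5% and 53.6% of all genes. Their median was -0.27, and chemoreceptor scaling gave 49 above and 0 below. Insulin-like peptide genes were above in 3 of 20 (15.0%, near the share of all genes). Among them was daf-28, an insulin that promotes growth, with 38.0, 45.9, 46.9 and 51.7 RPKM in S2, 4H8, 4H8 #2 and 8WG16, against 19.9 RPKM in input (1.02). All 4 libraries lay above input in daf-28, with 8WG16 the highest. Of heterochronic genes, which time larval stages, 2 of 8 were above (14.5% of all genes were), lin-14 at 0.83 and lin-41 at 0.55. So short a list gives no share to read. The gene daf-16, a FOXO transcription factor of the insulin pathway, was at 0.65. Cell cycle and replication genes were above in 6 of 33 (18.2%, against 14.5% of all genes) and below in 8 (median -0.07). Chemoreceptor scaling gave 26 above and 0 below. The highest, cdk-5 (3.30), overlaps kel-3, lies 29 bp from tag-61 (2.23) and was the only 1 of the list at least 2-fold above input. Next was pcn-1, the replication clamp PCNA, at 0.88.

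Genes of sperm, yolk and the germ line were examined as well. Over all genes, 14.5% were above input and 53.6% below. Of sperm genes, 2 of 37 were above input and 24 below (median -0.55). None of 4 yolk protein genes was above and all 4 were below, with vit-6 at 10.9, 13.4, 23.02 and 25.2 RPKM in S2, 4H8, 4H8 #2 and 8WG16, against 28.03 RPKM in input; chemoreceptor scaling turned its log2 ratio of -0.57 to 0.31. Germline genes were above in 7 of 43 (16.3%, against 14.5% of all genes) and below in 22 (median -0.28, 0.51 chemoreceptor-scaled); the RNA-binding protein gene puf-9 (1.77), also used outside the germ line, and the RNA helicase gene cgh-1 (1.59) were highest, and the P granule gene pgl-1 was at -0.18. Sperm and yolk genes had medians near that of the chemoreceptor family, and the germline share was near that of all genes.

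Large gene families expressed in few cells or conditions had low shares above input, against 14.5% of all genes. Of 1244 chemoreceptor genes, 9 were above input and 1146 below (median -0.57). Among F-box and MATH genes 5 of 389 were above (median -0.57), among C-type lectins 10 of 252 (median -0.56), among nuclear hormone receptors 20 of 267 (median -0.42) and among homeobox genes 5 of 77 (median -0.30). Chemoreceptor scaling raised these counts to 76, 48, 46, 106 and 40. Some of the highest members adjoined other genes above input: srb-7 (2.78) lies 130 bp from rps-14 (1.35), srt-47 (1.84) lies 47 bp past the end of hrpu-1 (1.23), and nhr-61 (2.43) overlaps rpl-37.1 (2.06). The part of these neighbours in the values was not tested.

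Among the start-only genes the window at the start stood out while the gene model was not called above input. Of the 485 genes, 450 were tested for a start ratio above their gene ratio (start bias), and 379 (2.41% of all classed genes) were called; the class was chosen on both ratios, so nothing is read from that share or from the 6.01% of 13485 genes called overall. Highest among them was mboa-2, a membrane-bound acyltransferase gene (chromosome V, 11119791-11122556), with 228, 160.0, 87.8 and 86.97 RPKM at the start in S2, 4H8, 4H8 #2 and 8WG16, against 10.5 RPKM in input. Over its gene model the densities were 17.9, 15.4, 12.5 and 14.8 RPKM, against 12.4 RPKM in input. The start ratio was 3.12 and the gene ratio 0.20. Another gene model lies within 500 bp of its start, so the start reads may not be its own.

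In vps-13D (chromosome II, 5684450-5689001), a lipid transfer protein gene, the start window held 200.3, 118.9, 89.5 and 90.8 RPKM in the 4 libraries, against 11.3 RPKM in input, and the gene model 12.4, 9.67, 9.18 and 8.64 RPKM, against 10.2 RPKM in input. Its start ratio of 2.91 ± 0.26 (SE, n = 4) was called in both limma fits (adjusted p = 8.67e-11 with input fixed and 0.00551 in the 2-group fit). No other gene model lies within 1000 bp of it. The taspase gene tasp-1 (chromosome III, 10759232-10762886) had 322, 756, 614 and 265 RPKM at the start, against 58.0 RPKM in input, and 12.5, 12.2, 10.9 and 10.4 RPKM over the gene, against 12.1 RPKM in input; quantile normalization turned its start ratio of 2.84 to -0.48. Here 4H8 was the highest library, and in vps-13D S2 was.

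The spliceosomal Sm protein gene snr-4 (chromosome V, 11978505-11979947) showed the lowest start density in S2, with 148 RPKM, against 372, 257 and 261 RPKM in 4H8, 4H8 #2 and 8WG16 and 33.6 RPKM in input. Over its gene model the 4 libraries held 14.0, 18.5, 16.1 and 17.3 RPKM, against 15.5 RPKM in input. The model of ntl-11 (chromosome IV, 15455115-15471449) had 106, 204, 140 and 79.4 RPKM at the start, against 19.3 RPKM in input, and 4.19, 4.52, 4.33 and 5.56 RPKM over the gene, against 5.39 RPKM in input. The gene pdtf-1 (chromosome IV, 8433020-8437961), named through RefSeq, had 129, 269, 228 and 181.5 RPKM at the start, against 24.4 RPKM in input, and 11.1, 11.1, 7.25 and 11.02 RPKM over the gene, against 7.60 RPKM in input. Its gene model lay above input in every library but the second 4H8 library, with a log2 ratio of 0.25 that did not pass the test. The splicing gene smu-1 (2.28), the heparan sulfate sulfotransferase gene hst-2 (2.26), the kinesin-associated protein gene kap-1 (2.42), the nuclear receptor gene nhr-47 (2.34), ska-3 (3.01) and fbxl-2 (2.69) completed the 12 highest start ratios. The class itself requires a start density above input in every library and a gene model not called above input, so both hold for all 12 by choice.

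**Figure D4:**
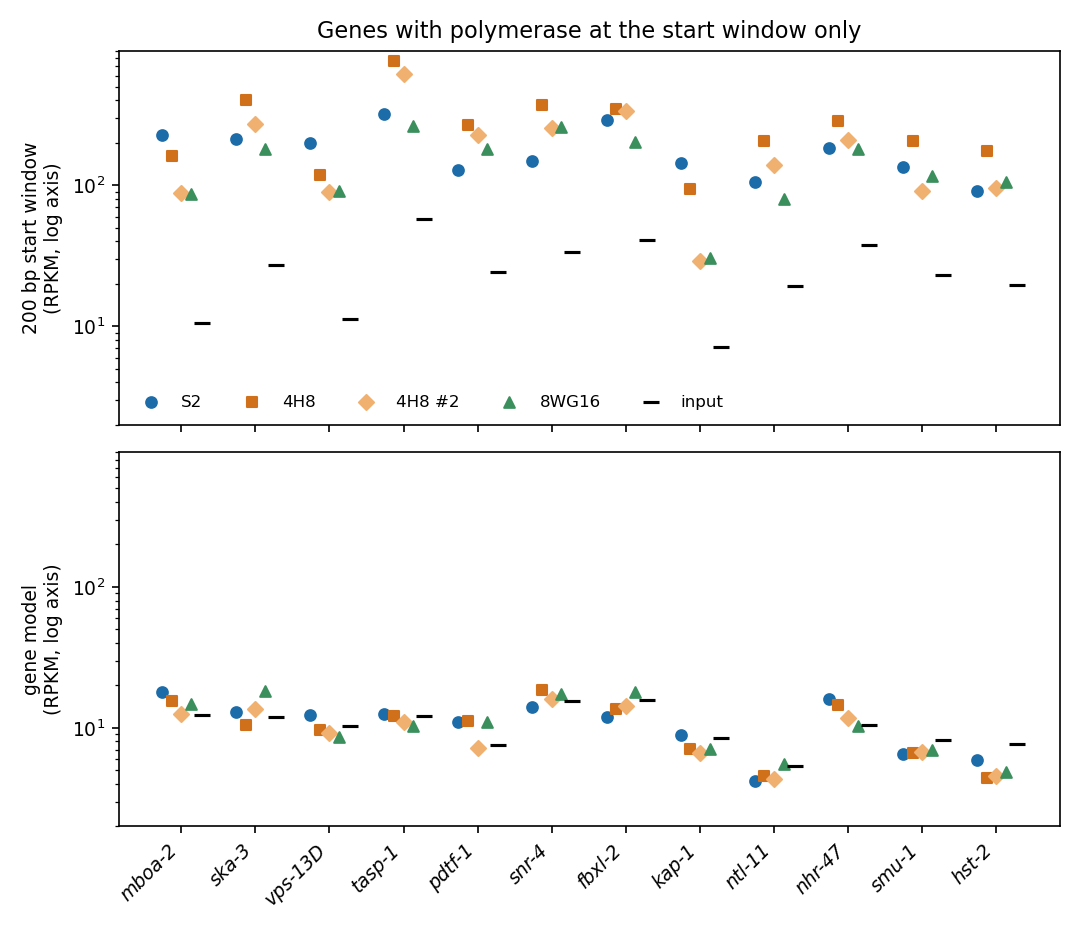
Density in RPKM on a log axis at the 200 bp start window (top) and over the gene model (bottom) for the 12 named start-only genes with the highest start ratio, with 1 symbol per ChIP library and a bar for input. At the start the ChIP symbols lie above input in all 12 genes, as the class requires, and over the gene model they lie close to the input bar, on either side of it.

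Position set many of these genes apart. A gene on the same strand ended less than 500 bp upstream of 274 of the 485 start-only genes (56.5%), of 384 of the 878 body genes whose start was also called (43.7%), and of 12.1% of genes in neither class. Any other gene model lay within 500 bp of the start in 347 start-only genes (71.5%) and in 59.2% of body genes whose start was called, against 23.1% in the neither class. In 211 start-only genes (43.5%) such a neighbour had a higher gene-model ratio than the gene itself, against 11.9% in the neither class. Much of that contrast repeats the presence of a neighbour. Among genes with one, the counts were 211 of 347 in start only and 1512 of 2942 in the neither class. Among the named genes, ska-3 starts 262 bp from rps-12 (2.08), nhr-47 starts 440 bp from dnj-19 (1.01), and the start of kap-1 lies inside gsp-2 (1.32). Another model also lies within 500 bp of the starts of mboa-2, fbxl-2, smu-1 and hst-2. Reads of the neighbour and of the gene's own start cannot be told apart there. With start bias and no model within 500 bp of the start, 97 genes were left, including vps-13D, tasp-1, pdtf-1, snr-4 and ntl-11. In these the median start ratio was 0.92 and the median gene ratio -0.02, and both medians follow in part from how the class was chosen.

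The body genes whose start ratio most exceeded their gene ratio had starts beside or inside other strong genes. The G protein gene egl-30 (chromosome I, 1835680-1841192) held 6470, 6207, 4199 and 2965 RPKM at its start in S2, 4H8, 4H8 #2 and 8WG16, against 98.3 RPKM in input, the highest start density in each of the 4 libraries. Its gene model held 128, 131, 92.0 and 77.8 RPKM, against 22.6 RPKM in input, and its start lies 240 bp after the end of rpl-27 (3.60). The start of suf-1, a gene of mRNA 3' end cleavage, lies 265 bp after rpl-26 (3.17) and had a ratio of 5.25, and that of inx-7, a gap junction gene, lies 357 bp after rps-25 (2.19) and had 4.50. In lact-3 the start (4.89) lies 215 bp after snu-13 (2.58), and in kel-3 it (5.10) lies inside cdk-5 (3.30). The start ratio exceeded the gene ratio by 2.88 to 3.70 in these 5 genes; whether the reads belong to the gene or to its neighbour was not tested.

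Body genes divided by whether their start window was occupied too. Start and gene were both called above input in each library in 878 genes, whereas in 1366 the start was not called above input. Where the start was not called the median start ratio was -0.02 and the median gene ratio 0.58, and a same-strand gene ended within 500 bp upstream in 12.4%. Of the 1919 body genes tested for start bias, 667 had a start ratio below their gene ratio and 248 above it. Of all 13485 genes tested, 1372 (10.2%) were below and 810 (6.01%) above. The body class was chosen on the gene ratio, which favours a low bias, so nothing is read from the surplus below. The body genes of at least 2-fold, a set chosen for a high gene ratio, which favours a low bias, had a median bias of -1.003, -0.78, -0.55 and -0.27 in S2, 4H8, 4H8 #2 and 8WG16. Their median gene ratios ran in the same order of libraries, at 1.92, 1.75, 1.33 and 1.06, and the libraries were not tested against each other.

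The 5 named body genes with the lowest start bias were picked for that value. The immunoglobulin-domain gene zig-7 (chromosome I, 4790412-4792502) had 272, 218, 149 and 146 RPKM over the gene in S2, 4H8, 4H8 #2 and 8WG16, against 11.8 RPKM in input, but 3.26, 7.78, 2.56 and 7.56 RPKM at the start, against 12.6 RPKM in input. Its bias was -4.35 and no other model lies within 1000 bp. The neuropeptide-like gene nlp-4 (chromosome I, 10516063-10517730) had 82.8, 211, 172 and 284 RPKM over the gene, against 17.8 RPKM in input, and 4.89, 22.2, 16.2 and 22.7 RPKM at the start, against 34.0 RPKM in input. In zig-7 S2 was the highest library and in nlp-4 the lowest. The other low values came with strong neighbours: chmp-7 (-3.74) overlaps rpl-32, tald-1 (-3.66) overlaps rpl-7A, and srt-47 (-3.10) had no read at its start in S2, under the 4.89 RPKM that 3 reads would give, and adjoins hrpu-1.

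The 4 libraries differed in range. At least 2-fold over input were 6.9%, 5.3%, 3.2% and 2.3% of gene models in S2, 4H8, 4H8 #2 and 8WG16, and 354 genes (2.0%) passed that level in all 4. Ribosomal protein genes had medians of 2.27, 2.30, 1.84 and 1.44 in the same order, and chemoreceptor genes -0.81, -0.74, -0.44 and -0.29. Across the 18048 genes, which are not independent and share 1 input, Pearson's r of gene ratios was 0.92 between both 4H8 libraries, 0.96 between S2 and the first 4H8 library, and 0.75 between S2 and 8WG16, and Spearman's rho was 0.82, 0.92 and 0.62 for the same pairs. The first 4H8 library thus resembled S2 more than it did its own replicate. Start ratios correlated less, with r between 0.49 and 0.80 and rho between 0.35 and 0.64. Depth moved with part of this order, 8WG16 having the fewest reads, and its role was not tested.

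The widest spread among strong body genes was found in nbs-1, tag-261, rps-16, rpl-27 and rpl-16. For rpl-16 the densities were 474, 430, 247 and 127 RPKM in S2, 4H8, 4H8 #2 and 8WG16, against 62.1 RPKM in input, a log2 ratio of 2.10 that quantile normalization turned to -0.64. The start of tag-261 lies 181 bp after the end of T07A9.14 (3.87). The S2 library was highest and 8WG16 lowest in all 5. The order differed in mdt-26, a Mediator subunit gene (chromosome II, 5661139-5665216), had 117, 165, 129 and 218 RPKM in S2, 4H8, 4H8 #2 and 8WG16, against 17.4 RPKM in input, with 560, 1008, 869 and 1392 RPKM at its start, against 62.2 RPKM in input. In mdt-26 8WG16 was the highest library and S2 the lowest, over the gene and at the start.

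Of 138 microRNA models only 2 could be tested over the gene model, neither of them above input, so start windows were used. Of 124, 37 were above input (9.96% of all start windows were) and 36 below, and 31 averaged at least 2-fold (5.48% of all start windows did). The gene mir-52, of the mir-51 family needed in embryos, had 543, 1097, 724 and 1144 RPKM in S2, 4H8, 4H8 #2 and 8WG16, against 19.1 RPKM in input, a ratio of 5.13 ± 0.42 (SE, n = 4; limma adjusted p = 2.25e-11 with input fixed and 0.00383 in the 2-group fit). The abundant bantam-family gene mir-58 had 479, 614, 429 and 566 RPKM in the 4 libraries, against 39.5 RPKM in input (3.55), and lies inside Y67D8A.1. S2 was not the highest library in either.

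Occupied genes were unevenly placed in the genome. The body class held 21.1% of classed genes on chromosome III, 19.5% on I, 16.3% on IV and 433 of 2706 on II, but 9.9% on V and 9.1% on X, against 14.8% of all. Chromosome V also carries the lowest median ratio, -0.45, against -0.12 on chromosome III. Start-only genes were likewise most frequent on chromosome III, at 5.1%, and least on X, at 1.5%. By length, body genes made up 18.2% of models of 500 to 1000 bp and 17.0% of those of at least 10000 bp, whereas start only was 1.5% of the shortest and 4.4% of the longest. Overlap with another model was found in 25.9% of body genes, against 10.5% of genes in neither class, and reads in such overlaps count for both genes.

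**Figure D5:**
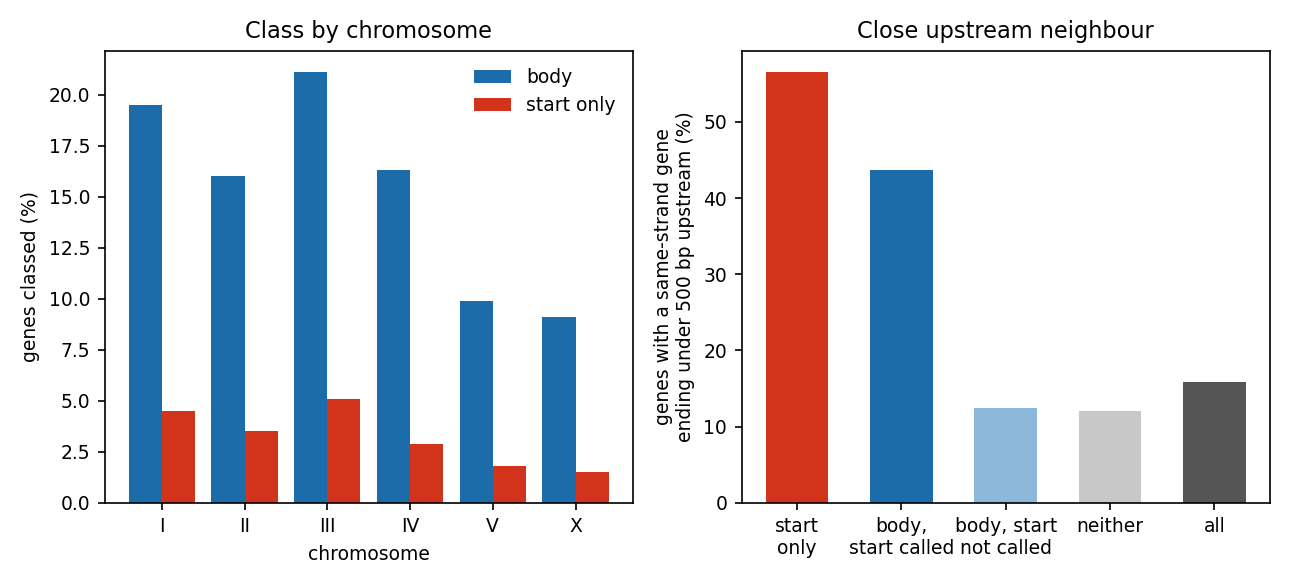
Left, share of classed genes (%) in the body and start-only classes on each chromosome. Right, share of genes (%) with a same-strand gene ending under 500 bp upstream, by class: 56.5% of start-only genes, 43.7% of body genes with an occupied start, 12.4% of body genes without one, 12.1% of genes in neither class and 15.8% of all.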

How the data were processed

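RPKM for gene models and for 200 bp start windows were computed by the authors and deposited for each library, per the file headers, on the WS190 annotation; fold enrichment over input is a second deposited measure, used here only as an alternative. Which aligner was used is not given in the sources used here. Depth was recovered from the size of 1 read in the start windows, where 87.5% to 92.0% of values were whole reads; the step of 1 read depends on window length, so no count test was run.

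From the deposited RPKM, log2(RPKM + 5) was fitted with limma 3.58.1 in R 4.3.3 with a mean-variance trend, on gene models of at least 500 bp and at least 5 RPKM in input, start windows of at least 5 RPKM in input, and, for start bias (start minus gene), models of at least 1000 bp passing both. The planned fit compared 4 ChIP libraries with 1 input column as 2 groups. It called no gene model, so the classes were described with a second fit that tests the 4 ratios to input against 0. That change of emphasis was made after the results were seen, and both fits are reported. In the second fit the prior variance follows the mean log2 density of the row. A first run let it follow the ratio itself, which inflated the errors of the highest genes, and its counts are kept as an alternative. The row mean includes the ChIP libraries, so errors of high genes can still be large for their spread. For rla-1 over the gene model the SE was 0.66 and the SD over the 4 libraries 0.65. Each fit was run under other pseudocounts, filters, scalings and with libraries left out.

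Gene names are those in the deposited tables, which pair 7819 of 20315 genes with a public symbol; 3720 more were named through RefSeq locus tags. Named genes were taken by rule: the 12 highest body genes by gene ratio, the 12 highest start-only genes with bias by start ratio, the 5 most variable body genes, the 5 highest and 5 lowest by bias in the body class, the 2 highest and 1 lowest of each list, and 12 fixed genes. Applied to the planned fit the rule would name no body gene, so it was applied to the classes with input fixed. The comparison of neighbours by side was added after values were seen. Members and lists were chosen with earlier results of these data known. The fits were tested on simulated data.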

Additional observations from a re-analysis of the deposited data

Results flagged for a closer look

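The gene-model ratio of pdtf-1 stood apart in 1 library: the second 4H8 library had a log2 ratio of -0.04, while S2, the first 4H8 library and 8WG16 were each at 0.35. The gap to the nearest library exceeded Dixon's critical value for 4 samples, and of the values examined for 131 named genes this was the single one flagged. Chance gives such a gap in about 1 group in 20, so nothing is read from it. Other measures also held a library apart: the start bias of fbxl-2 was 3.0, 3.12, 3.02 and 2.05 in S2, 4H8, 4H8 #2 and 8WG16.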

How the results depend on the processing

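In the 2-group fit, most counts were small and moved with the settings. With a pseudocount of 1 RPKM it called 96 start windows above input and 1 below, start bias above in 15 and below in 0, and 80 start-only genes, 11 with bias; with 10 RPKM the counts were 12 starts below, bias above in 30 and below in 2, and 27 start-only genes with bias. Without a filter on density it called 0 starts above and 100 below, bias in 0 and 0, and 0 start-only genes, 0 with bias. A mean of at least 10 RPKM left 1 start below, bias below in 4 and 4380 genes in neither class. Quantile normalization gave 272 gene models above and 150 below, 252 starts above and 140 below, bias above in 93 and below in 172, and 258 body genes. Chemoreceptor scaling gave 0 starts above, 0 below, and 0 start-only genes, 0 with bias. Averaging both 4H8 libraries first gave 47 starts above and 1 below, bias above in 16 and below in 2, and 38 start-only genes, 9 with bias. Taking start reads out of gene models of at least 1000 bp gave 6 gene models below and 19 start-only genes with bias. Input taken as fixed gave 2623 gene models above and 9676 below, 1705 starts above and 6182 below, bias above in 810 and below in 1372, 2331 body genes and 485 start-only genes, 379 with bias. The authors' deposited fold enrichment gave 2402 gene models above and 11235 below, 1549 starts above and 6898 below, bias above in 979 and below in 1054, 2147 body genes and 474 start-only genes, 391 with bias.

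Leaving out 1 library at a time gave between 0 and 211 gene models above input (211 without 8WG16) and 0 to 3 below, 0 to 236 starts above (0 without either 4H8 library, 236 without S2) and 0 to 9 below, bias above in 16 to 190 and below in 2 to 79, 0 to 202 body genes, and 0 to 203 start-only genes, 0 to 88 with bias.

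With input fixed, leaving out 1 library gave 1682 to 2876 gene models above input and 6211 to 10252 below, 1052 to 1792 starts above and 2376 to 7357 below, and bias above in 507 to 1037 and below in 716 to 1971; the lowest of these counts came without the first 4H8 library, except bias below (without S2). Opposite-strand neighbours upstream of ribosomal protein genes were above input in 5 to 10. Requiring at least 2-fold gave 730 gene models above and 28 below, 937 starts above and 1149 below, bias above in 365 and below in 494, and 694 body genes. A mean of at least 10 RPKM gave 1627 gene models and 789 starts below, bias below in 484, 320 start-only genes, 246 with bias, and 2303 in neither class. Without a filter there were 3728 starts below and bias below in 679; a pseudocount of 1 RPKM gave 4110 starts below and bias below in 807. Averaging both 4H8 libraries gave bias above in 534 and below in 780. Quantile normalization gave 4737 gene models above and 5106 below, 3358 starts below, bias above in 1623 and below in 2654, and 4032 body genes. Chemoreceptor scaling gave 8861 gene models above and 195 below, 3339 starts above and 118 below, 7691 body genes, 183 start-only genes, 104 with bias, 7583 in neither class, and 18 of the upstream neighbours above input. With the prior variance following the ratio, 2840 gene models were above and 10275 below, 2454 genes were in the body class and 440 were start only; every count of that fit stayed within 1.5 times of the reported one.

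Counts of list members above input under chemoreceptor scaling were 29 for tRNA synthetases, 64 mitochondrial ribosome, 32 proteasome, 49 transcription machinery, 30 splicing, 26 cell cycle and replication, 84 collagen, 12 hypodermis, 12 intestine, 11 pharynx, 31 neuron, 49 neuropeptide, 19 germline, 14 sperm, 76 chemoreceptor, 48 F-box and MATH, 46 C-type lectin, 106 nuclear hormone receptor, 40 homeobox, 10 insulin-like peptide and 8 heterochronic. Quantile normalization gave 27 ribosomal protein, 40 mitochondrial ribosome, 10 proteasome, 6 actin and tubulin, 10 cell cycle and replication, 14 collagen, 18 neuron, 25 neuropeptide, 43 chemoreceptor, 25 F-box and MATH, 59 nuclear hormone receptor and 18 homeobox genes.

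Among 131 named genes, chemoreceptor scaling turned the sign of 18: eif-2Balpha (0.31), crs-2 (0.46), nol-9 (0.28), mrpl-58 (0.50), rpn-6.2 (0.20), taf-11.2 (0.01), prp-4 (0.50), tba-8 (0.17), col-163 (0.16), mlt-11 (0.19), unc-45 (0.37), phat-1 (0.24), cat-2 (0.22), vit-5 (0.24), vit-2 (0.38), vit-1 (0.20), lin-46 (0.31) and vit-6 (0.31). Quantile normalization turned 6: tasp-1 (start, -0.48), rpl-16 (-0.64), nol-9 (0.18), unc-45 (0.09), snb-1 (-0.38) and vit-5 (0.13). The other settings turned none. These shifts follow from the scaling itself; for the other settings the cause was not tested. The single input column and the 2 to 8 reads of a median start window limit what the start values can show. No paired analysis was possible because input was given as 1 column that names no single input sample.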
